A study of Mus musculus with 18 samples.

Results

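*Gng4*, *Trpa1*, *Rcan2*, *Olfml2b*, *Prr7*, and *Enpp5* are 6 of the 20878 genes measured in K7M2 tumors, and they were chosen by their levels in tumors of NSG mice, as the clearest rises upon *Atrx* knock-down. That contrast is therefore given here as a description, and the question asked was whether the rise of each gene was repeated in tumors of Balb/c mice, whose values were not used in the choice. K7M2 is an osteosarcoma line derived from a Balb/c mouse. Cells transduced with an shRNA against *Atrx* (ATRX-KD) or a control shRNA (ATRX-CT) were grafted into young female mice, and total RNA was sequenced from 1 tumor per animal: 4 tumors of each kind of cells grew in Balb/c hosts and 5 of each kind in NSG hosts. The NSG strain has no T, B, or NK lymphocytes, whereas Balb/c mice are immunocompetent and syngeneic to the graft. The labels give no cage, so cage and knock-down cannot be told apart.

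ATRX is a chromatin remodeler of the SWI/SNF family that is known for depositing histone variant H3.3 with DAXX at telomeres, pericentromeric repeats, and G-rich sequences able to fold into G-quadruplexes. The 6 genes do not form a pathway. They code for a G protein subunit, a cation channel, a regulator of the phosphatase calcineurin, a secreted matrix protein, a synaptic adaptor, and a member of a family of ectoenzymes, and several of them are best known from neurons.

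A gene was called at a limma adjusted p under 0.05 and a fold of at least 2 in FPKM + 1. In Balb/c mice 0 of the 6 genes were called higher, as were 0% of the 14701 genes tested in that host. This count therefore cannot tell the 6 genes from the rest, and each rise is read from its difference and interval. The limma adjustment ran over all genes tested, and no adjustment over the 6 genes alone was made. *Prr7* and *Enpp5* came closest: for both, ATRX-KD tumors were higher when the p was left unadjusted (p under 0.05), which held for 1.72% of all genes tested. *Rcan2* and *Trpa1* had differences above 0 with intervals that included 0, and *Gng4* and *Olfml2b* had differences just below 0. The median difference of the 6 genes was 0.30 on the log2 scale in Balb/c mice, where the median over all genes tested was -0.003, and 1.11 in NSG mice, where it was -0.001.

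Levels are given as FPKM, fragments per kilobase of transcript and per unit of library size, so that they can be compared between genes per length. Differences (ATRX-KD minus ATRX-CT) are on the log2 (FPKM + 1) scale, which understates the change of genes near or below 1 FPKM. All 6 genes passed the filter of a mean of 0.1 FPKM in both hosts. Libraries held about 14950000 to 25450000 fragments, as estimated from the steps between low values.

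*Atrx* itself, on chromosome X (105797615 to 105929372, minus strand, mm10), overlapped between the groups of each host, in NSG mice through ATRX-KD mouse 27 alone. It ranged from 10.3 to 26.0 FPKM in Balb/c ATRX-CT tumors and from 7.88 to 21.5 FPKM in ATRX-KD tumors, a log2 difference of -0.34 ± 0.36 (SE, n = 4 per group; limma adjusted p = 0.999, two-sided exact permutation p = 0.486). In NSG mice the ranges were 11.6 to 24.4 and 8.42 to 16.4 FPKM, with a difference of -0.74 ± 0.22 (SE, n = 5 per group; limma adjusted p = 0.061, exact permutation p = 0.0317). The labels of the Balb/c groups could thus not be checked with the target gene. ATRX-KD mouse 56 held 21.5 FPKM of *Atrx*, more than 3 of the 4 Balb/c control tumors. The level of *Atrx* followed how gene levels ran along transcript length in each Balb/c library (r = 0.95). That slope was 0.24 in mouse 56, the highest of the Balb/c libraries, and its part in this level was not tested. With the slope as a covariate, added after seeing the data, the Balb/c difference was -0.21 ± 0.12 (SE, limma adjusted p = 0.545). The NSG difference was then -0.82 ± 0.12 (SE, limma adjusted p = 0.00616). For the transduced K7M2 cells before grafting, the paper reports loss of ATRX by western blot.

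**Figure D1:**
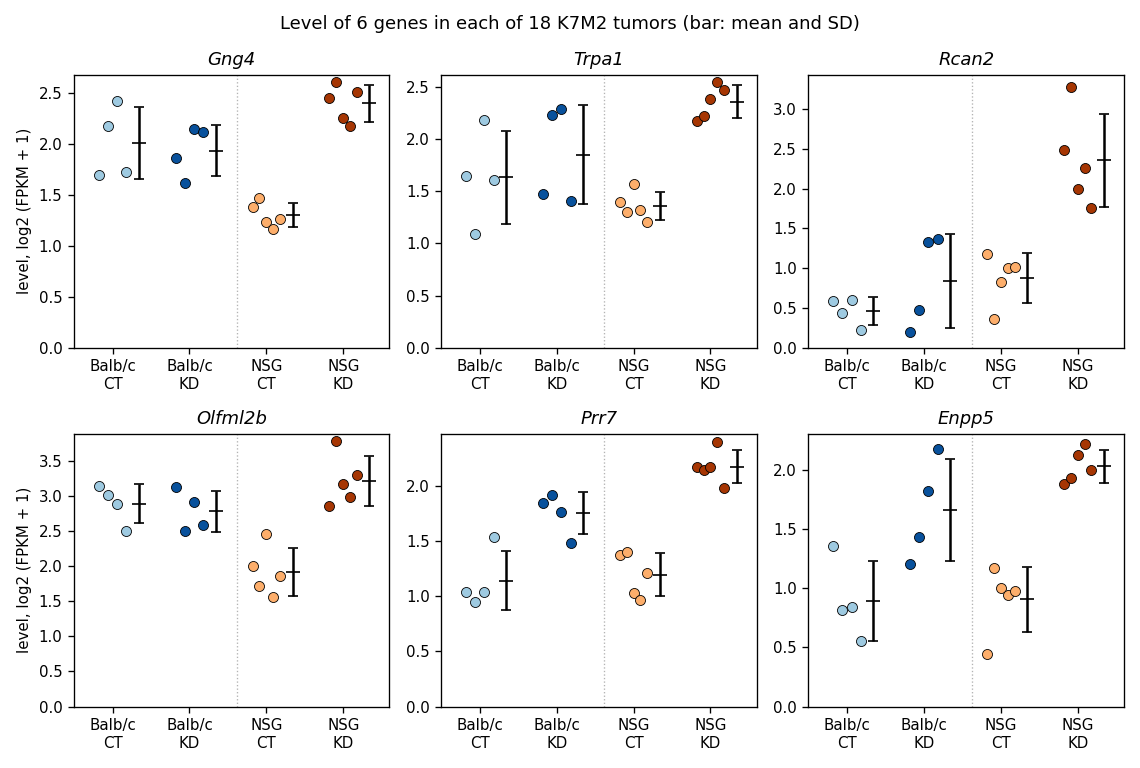
Level of each gene in log2 (FPKM + 1) in the 18 tumors, by host and by grafted cells (CT, ATRX-CT; KD, ATRX-KD). Points are tumors and bars are the mean and SD; all 5 NSG ATRX-KD tumors lie above all 5 NSG ATRX-CT tumors for the 6 genes, whereas the Balb/c groups overlap for each gene, by a single pair of tumors for *Prr7* and for *Enpp5*.

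*Prr7* codes for a proline-rich transmembrane protein found at synapses, where it associates with PSD-95 and NMDA receptors. The gene lies on chromosome 13 (55464267 to 55473155, plus strand, mm10; 1 transcript, 3 exons). In Balb/c ATRX-CT tumors its level was 1.06 FPKM in mouse 41, 0.934 in mouse 43, 1.05 in mouse 44, and 1.90 in mouse 45. In ATRX-KD tumors it was 2.60 FPKM in mouse 56, 2.78 in mouse 58, 2.39 in mouse 59, and 1.80 in mouse 60. The groups overlapped by 1 pair, the high control of mouse 45 and the low ATRX-KD tumor of mouse 60. The means were 1.24 ± 0.449 and 2.39 ± 0.423 FPKM (SD, n = 4 each), and the log2 difference was 0.61 ± 0.16 (SE; 95% interval 0.25 to 0.97). Its unadjusted p was 0.00407 and its adjusted p was 0.598 in limma over all genes, and the exact permutation p was 0.0571, where the 70 arrangements of the tumors allow no value below 0.0286. Without mouse 45 the groups did not overlap and the difference was 0.74 (limma adjusted p = 0.475). Tumors of NSG mice held 0.958 to 1.64 FPKM of *Prr7* with control cells and 2.96 to 4.27 FPKM with ATRX-KD cells, a difference of 0.98.

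*Enpp5* belongs to the ectonucleotide pyrophosphatase/phosphodiesterase family, membrane or secreted enzymes that act on nucleotides or phospholipids. The gene lies on chromosome 17 (44078846 to 44086567, plus strand; 2 transcripts). Balb/c ATRX-CT tumors held 1.56 FPKM of *Enpp5* in mouse 41, 0.761 in mouse 43, 0.792 in mouse 44, and 0.469 in mouse 45. Levels in ATRX-KD tumors were 1.30 FPKM in mouse 56, 1.70 in mouse 58, 2.54 in mouse 59, and 3.51 in mouse 60. Here too 1 pair overlapped, as the control of mouse 41 exceeded the ATRX-KD tumor of mouse 56. Group means were 0.897 ± 0.468 and 2.26 ± 0.977 FPKM (SD, n = 4 each), with a log2 difference of 0.76 ± 0.24 (SE; 95% interval 0.23 to 1.30; limma unadjusted p = 0.00979, adjusted p = 0.794; exact permutation p = 0.0571). The NSG difference was 1.12, a value that chose the gene and was not tested against the Balb/c one. In NSG mice the control tumors held 0.356 to 1.26 FPKM and the ATRX-KD tumors 2.68 to 3.64 FPKM. The control means of *Enpp5* in the 2 hosts were 0.897 and 0.900 FPKM, and those of *Prr7* were 1.24 and 1.31 FPKM.

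*Rcan2* codes for a regulator of calcineurin, the calcium-activated phosphatase that sends NFAT factors to the nucleus. It is also on chromosome 17 (43801851 to 44039516, plus strand; 4 transcripts), and *Enpp5* is the next annotated gene, 39329 bp away with 0 genes between them. *Rcan2* was the lowest of the 6 genes in Balb/c mice, with 0.504, 0.356, 0.519, and 0.166 FPKM in ATRX-CT mice 41, 43, 44, and 45. The ATRX-KD tumors split: mice 59 and 60 held 1.52 and 1.57 FPKM, above every control, whereas mouse 58 held 0.387 and mouse 56 held 0.150, the lowest value of the 8 tumors. The log2 difference was 0.38 ± 0.26 (SE, n = 4 per group; 95% interval -0.21 to 0.96; limma unadjusted p = 0.177, adjusted p = 0.999; exact permutation p = 0.343). Its size rested on single tumors: without mouse 56 the difference was 0.59 (limma unadjusted p = 0.0261, adjusted p = 0.907), and without mouse 59 or 60 it was 0.22 or 0.21. In NSG mice *Rcan2* had the largest difference of the 25 genes called higher, 1.48, from 0.288 to 1.26 FPKM in control tumors to 2.38 to 8.70 FPKM in ATRX-KD tumors, with mouse 27 at the top. Its ATRX-KD tumors also varied most among the 6 genes on the log2 scale in that host, with an SD of 0.58 against 0.14 for *Enpp5*. Under the estimated depth the lowest Balb/c values, in mice 45 and 56, stood for about 10.6 and 10.7 fragments.

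Both neighbors were highest in the same Balb/c ATRX-KD tumors, mice 59 and 60. Their deviations from the group means had r = 0.85 over the 8 Balb/c tumors but -0.50 over the 10 NSG tumors and 0.23 over all 18 (permutation p = 0.408; rho = 0.11, p = 0.688; r = 0.20 without the 2 tumors farthest from the median).

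**Figure D2:**
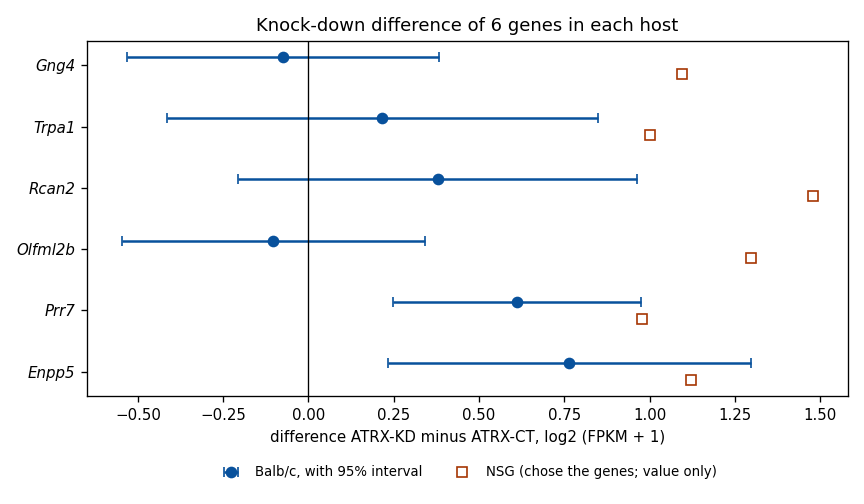
Difference between ATRX-KD and ATRX-CT tumors on the log2 (FPKM + 1) scale for each gene and host. Filled circles are Balb/c values with limma's 95% interval and open squares are NSG values, which chose the genes and carry no interval. Of the 6 Balb/c intervals 2, those of *Prr7* and *Enpp5*, lie above 0. Circles and squares were not tested against each other.

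*Trpa1* codes for a cation channel of the TRP family that senses irritants in sensory neurons. The gene lies on chromosome 1 (14872648 to 14918862, minus strand; 1 transcript, 27 exons). In Balb/c mice *Trpa1* was at 2.13, 1.14, 3.54, and 2.05 FPKM in ATRX-CT mice 41, 43, 44, and 45, and at 1.78, 3.69, 3.89, and 1.65 FPKM in ATRX-KD mice 56, 58, 59, and 60. The values fell into a high and a low set that both held tumors of each group, with mouse 44 of the controls beside mice 58 and 59 of the ATRX-KD tumors. The difference was 0.22 ± 0.28 (SE, n = 4 per group; 95% interval -0.41 to 0.85; limma unadjusted p = 0.459, adjusted p = 0.999; exact permutation p = 0.6). NSG tumors ranged from 1.30 to 1.96 FPKM with control cells and from 3.52 to 4.84 FPKM with ATRX-KD cells, a difference of 1.00.

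The 3 Balb/c tumors with the highest *Trpa1* were those with the lowest *Atrx*, at 10.3, 7.88, and 9.11 FPKM in mice 44, 58, and 59. Over the 8 Balb/c tumors *Trpa1* and *Atrx* were inversely related (r = -0.94, exact permutation p = 0.0012; rho = -0.90, exact permutation p = 0.0046), and r was -0.90 without the 2 tumors farthest from the median of *Atrx*. For the other 5 genes r lay between -0.37 and 0.21, with *Rcan2* at the lower and *Olfml2b* at the upper end. *Trpa1* was not particular in this: adjusted over the 14700 genes tested its p was 0.0358 for r and 0.0534 for rho, and 1520 genes had a negative and 1303 genes a positive r with *Atrx* at an adjusted p under 0.05. The level of *Atrx*, a long transcript, itself followed how the level of genes ran along transcript length in each library (r = 0.95 over the same 8 tumors). The slope of this trend was below 0 in mice 44, 58, and 59 and above 0 in the other 5 Balb/c libraries. Within the libraries below 0, *Trpa1* stood at 2.18 in the single control tumor and at a mean of 2.26 in 2 ATRX-KD tumors on the log2 (FPKM + 1) scale, and within those above 0 at means of 1.45 in 3 control and 1.44 in 2 ATRX-KD tumors. With the slope as a covariate of the fit, an alternative added after seeing the data, the difference of *Trpa1* was 0.13 ± 0.15 (SE; limma adjusted p = 0.797). In NSG libraries with a slope below 0, *Trpa1* stood at means of 1.31 in 4 control and 2.40 in 4 ATRX-KD tumors. With a slope above 0 it stood at 1.57 in 1 control and 2.22 in 1 ATRX-KD tumor. These NSG values chose the gene, and the part of the slope in the level of *Trpa1* was not tested.

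**Figure D3:**
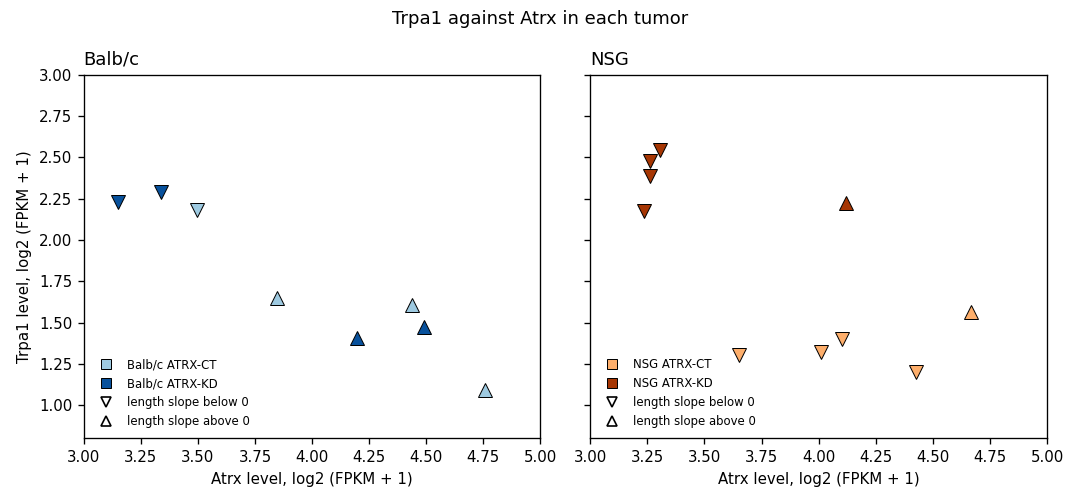
*Trpa1* against *Atrx*, both in log2 (FPKM + 1), in Balb/c tumors (left) and NSG tumors (right). Each triangle is a tumor, colored by group, and points down where the slope of gene levels along transcript length was below 0 in that library; in Balb/c mice the 3 downward triangles hold *Trpa1* above 2.1 and the 5 upward ones below 1.7, whichever cells were grafted. The NSG values, which chose the gene, are shown for their levels.

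*Gng4* codes for a gamma subunit of heterotrimeric G proteins, which relay signals from membrane receptors together with a beta subunit. The gene lies on chromosome 13 (13784059 to 13827895, plus strand; 2 transcripts). Its levels in Balb/c mice were 2.25, 3.51, 4.37, and 2.31 FPKM in ATRX-CT mice 41, 43, 44, and 45, and 2.63, 2.06, 3.43, and 3.33 FPKM in ATRX-KD mice 56, 58, 59, and 60. The highest and the next highest values were both of control tumors, and the difference was -0.07 ± 0.20 (SE, n = 4 per group; 95% interval -0.53 to 0.38; limma unadjusted p = 0.724, adjusted p = 0.999; exact permutation p = 0.743). In NSG mice the control tumors held 1.25 to 1.76 FPKM and the ATRX-KD tumors 3.51 to 5.09 FPKM, a difference of 1.10.

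*Olfml2b* codes for a secreted protein with an olfactomedin domain that binds proteoglycans of the extracellular matrix. The gene lies on chromosome 1 (170644532 to 170682789, plus strand; 1 transcript, 8 exons). It was the most abundant of the 6 genes in each group, with 7.86, 7.05, 6.42, and 4.67 FPKM in Balb/c ATRX-CT mice 41, 43, 44, and 45, and 7.78, 4.69, 6.54, and 4.98 FPKM in ATRX-KD mice 56, 58, 59, and 60. These ranges nearly coincided, and the difference was -0.10 ± 0.20 (SE, n = 4 per group; 95% interval -0.55 to 0.34; limma unadjusted p = 0.614, adjusted p = 0.999; exact permutation p = 0.686). In NSG mice *Olfml2b* went from 1.95 to 4.49 FPKM in control tumors to 6.26 to 12.7 FPKM in ATRX-KD tumors, a difference of 1.30.

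The control tumors set these genes apart. *Gng4* and *Olfml2b* were higher in all 4 Balb/c control tumors than in any of the 5 NSG control tumors, by 0.70 and 0.97 on the log2 scale, so that their Balb/c levels lay between those of the NSG groups or reached the range of the NSG ATRX-KD tumors. *Trpa1* was above the NSG controls in 3 of 4 Balb/c control tumors, with a difference of 0.27. *Prr7* and *Enpp5* controls differed by -0.06 and -0.01 between hosts, and *Rcan2* controls by -0.41. In ATRX-KD tumors all 6 genes had a lower mean in Balb/c than in NSG mice, by 0.37 (*Enpp5*) to 1.51 (*Rcan2*), and for *Gng4*, *Rcan2*, and *Prr7* each of the 4 Balb/c values lay below each NSG value. Since the NSG values chose the genes, these host differences are a description, and the difference in knock-down effect between hosts was not tested.

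In NSG mice 5 of the 6 genes were called higher, where 0.171% of the 14654 genes tested were, and the groups did not overlap for any of the 6, as for 4.36% of genes in that direction. Both counts were fixed by the choice of the genes. *Trpa1*, with a difference of 1.00, was the member just inside the fold threshold, which is set on FPKM + 1, and *Prr7*, with 0.98, the 1 just outside it. Their ratios of mean FPKM were 2.64 and 2.70. The other 20 genes called higher in NSG mice gave a measure of how often such rises recurred: 8 of the 20 (40.0%) were higher in Balb/c mice before adjustment (p under 0.05) and their median difference was 0.44, beside 2 of the 6 (33.3%) and 0.30 for the members. The Balb/c groups did not overlap for 4 of these 20, *Klhl40*, *Murc*, *Ogn*, and *Tnfrsf11b*, and for 0 of the 6, against 1.25% of all genes. Higher levels in NSG mice at an adjusted p under 0.05 with any fold were found for 3.73% of genes, and of the 541 such genes that were tested in Balb/c mice and are not members, 52 (9.61%) were higher there before adjustment.

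Means of marker lists of other cells were compared in both hosts, and the permutation p values were not adjusted over the lists. The lists of T cells, pericytes and smooth muscle, skeletal muscle, and keratinocytes had exact permutation p values of 0.314 to 0.944 in these comparisons. In Balb/c mice the mean of 6 mast cell markers was lower in ATRX-KD tumors by 1.47 (exact permutation p = 0.0286, the smallest possible). Summed levels were 122 to 314 FPKM in control and 39.9 to 86.9 FPKM in ATRX-KD tumors. In limma 5 of the 6 were lower at an unadjusted p under 0.05, against 2.42% of all genes tested. The mean of 5 adipocyte markers differed there by 0.53 (exact permutation p = 0.0571), with all 5 higher in mean. In NSG mice these means differed by 0.52 and 0.86 (exact permutation p = 0.246 and 0.167). The NSG mean of 8 endothelial markers was higher in ATRX-KD tumors by 0.68 (exact permutation p = 0.0317), with summed levels of 22.7 to 56.3 FPKM in control and 45.7 to 68.9 FPKM in ATRX-KD tumors and 8 of 8 markers higher at an unadjusted p under 0.05. The NSG mean of 8 macrophage markers was lower by 0.49 (exact permutation p = 0.0159), from 3078 to 4251 down to 1960 to 3495 FPKM in sum, with 7 of 8 lower at an unadjusted p under 0.05 and *Csf1r*, coding for a macrophage growth factor receptor, higher by 0.37 (limma unadjusted p = 0.02). All genes gave 13.8% higher and 12.5% lower at that p in NSG mice. In Balb/c mice the endothelial and macrophage means differed by 0.42 and -0.11 (exact permutation p = 0.229 and 0.514). Markers of neurons, where *Trpa1* and *Prr7* are best known, summed to 10.5 to 17.6 FPKM in NSG control tumors and to 8.79 to 18.3 FPKM in NSG ATRX-KD tumors, with *Elavl4* at 0 in all 10. In Balb/c mice they summed to 19.7 to 25.8 FPKM in control and 10.6 to 44.1 FPKM in ATRX-KD tumors, where *Stmn2* had means of 2.22 and 13.5 FPKM (limma unadjusted p = 0.136) and *Tubb3* was lower by 0.47 without overlap (limma unadjusted p = 0.0258, adjusted p = 0.999). Nearly all of the neuron sums came from *Tubb3* and *Stmn2*. Each other neuron marker had group means of at most 0.923 FPKM, and of at most 0.192 FPKM in NSG mice. Schwann cell markers differed by -0.08 in NSG and -0.03 in Balb/c mice (exact permutation p = 0.254 and 0.571). Osteoblast markers, of the lineage of the graft, summed to 610 to 1383 FPKM over the 18 tumors, nearly all of it from *Col1a1*, *Col1a2*, and *Spp1*. The more specific markers *Sp7*, *Ibsp*, *Bglap*, and *Alpl* had group means of at most 0.413 FPKM, and *Runx2* of 4.87 to 6.86 FPKM. *Col1a1* and *Col1a2* were higher in NSG ATRX-KD tumors by 0.66 and 0.63 (limma unadjusted p = 0.0157 and 0.0098, adjusted p = 0.101 and 0.0784). In bulk tumors more cells of a type and more RNA per cell cannot be told apart, and the part of cell makeup in the levels of the 6 genes was not tested.

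**Figure D4:**
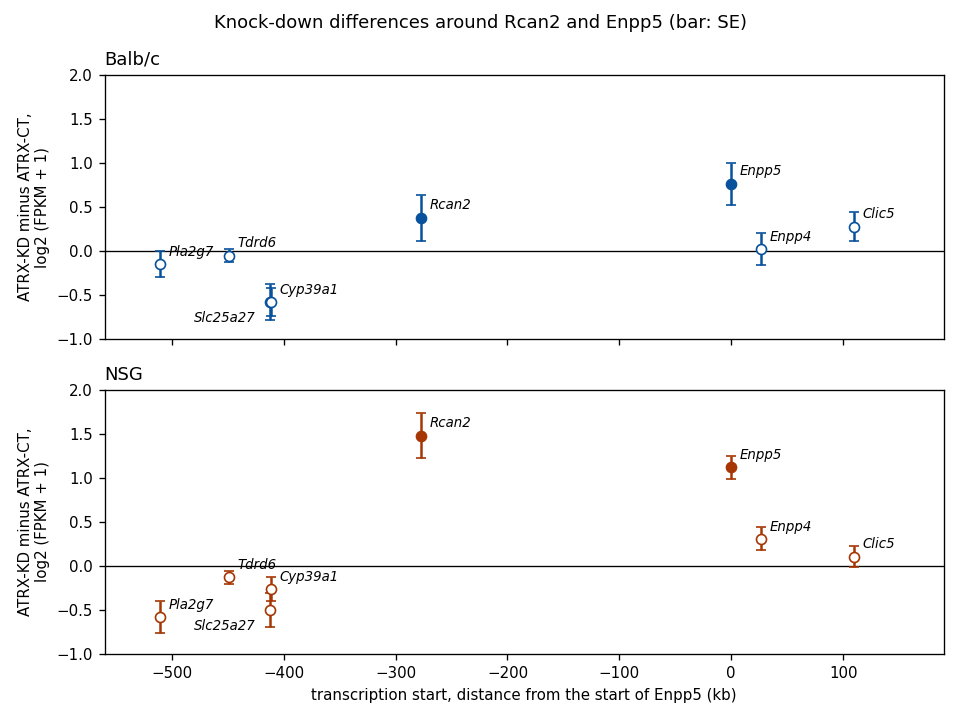
Difference between ATRX-KD and ATRX-CT tumors, log2 (FPKM + 1), of each gene tested within 250 kb of *Rcan2* or *Enpp5*, against the distance of its transcription start from that of *Enpp5* in kb. Bars are limma's SE and filled points are *Rcan2* and *Enpp5*, which lie at 1.48 and 1.12 in NSG mice, where the other 6 genes lie between -0.58 and 0.31.

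No other gene tested around *Rcan2* and *Enpp5* was called in either host. *Enpp4*, an ENPP gene 9741 bp from *Enpp5*, differed by 0.02 in Balb/c and 0.31 in NSG mice, and *Clic5*, a chloride channel gene beyond it, by 0.28 and 0.11. On the other side of *Rcan2*, *Cyp39a1*, an oxysterol hydroxylase gene, was lower by 0.58 in Balb/c mice (limma unadjusted p = 0.00623, adjusted p = 0.673) and differed by -0.26 in NSG mice. *Slc25a27*, a mitochondrial carrier gene, differed by -0.58 and -0.50. For *Prr7* the closest gene was *Dbn1*, which codes for the actin-binding protein drebrin of dendritic spines, 272 bp away, with differences of 0.17 and 0.39. Of the 42 other genes within 250 kb of a member, 38 were in the table and 34 were tested, of which 0 were called in either host (all genes: 0% higher and 0.0068% lower in Balb/c mice, 0.171% and 0.293% in NSG mice). At an unadjusted p under 0.05, 0 were higher and 3 lower in Balb/c mice (*Cyp39a1*, *Slc25a27*, and *Fcrlb*), against 1.72% and 2.42% of all genes, and 4 were higher and 7 lower in NSG mice, against 13.8% and 12.5%.

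Relatives of the 6 genes were not called in either host. For the counts at an unadjusted p under 0.05 that follow, the shares of all genes were 1.72% higher and 2.42% lower in Balb/c mice. In NSG mice these shares were 13.8% and 12.5%. Among the other G protein gamma subunits 8 were tested in each host, of which 1 passed an unadjusted p in Balb/c mice (*Gng8*, higher by 0.47) and 3 in NSG mice (*Gng8* higher, *Gng2* and *Gng7* lower). *Gng5*, the gamma subunit with the highest level, differed by -0.01 and -0.10 in Balb/c and NSG mice, and 0 of 4 beta subunits passed an unadjusted p in either host. Among TRP channels 1 of 13 was lower in Balb/c mice (*Trpc1*, by 0.75) and 2 of 12 were lower in NSG mice, *Trpm2* and *Mcoln2*. The calcineurin subunits, the other *Rcan* genes, NFAT factors, and *Cabin1*, *Akap5*, and *Dyrk1a*, which act on or anchor calcineurin or NFAT, numbered 13 tested, with 0 passing in Balb/c mice and 2 lower in NSG mice, *Ppp3cb* and *Nfatc2*. *Rcan1* and *Rcan3*, the closest relatives of *Rcan2*, differed by 0.10 and 0.21 in NSG mice. In the olfactomedin family 1 of 8 was lower in Balb/c mice (*Olfml3*) and 2 of 9 were higher in NSG mice (*Olfml1* and *Adgrl2*).

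Of the NMDA receptor subunits, the partners of PRR7, *Grin2d* was tested, with means from 0.786 to 1.79 FPKM over the 4 groups, and the other 6 were below the filter. With the PSD-95 family 4 genes of this list were tested, of which *Dlg4*, coding for PSD-95 itself, was higher in NSG mice by 0.56 (limma adjusted p = 0.0352) and differed by 0.25 in Balb/c mice. In the ENPP family most of the other genes tested were higher in NSG ATRX-KD tumors, whereas *Enpp1* differed by -0.32 (limma unadjusted p = 0.051). There *Enpp2*, *Enpp3*, and *Enpp4*, 3 of the 4 tested, were higher at an unadjusted p under 0.05 by 0.64, 0.37, and 0.31, and *Enpp3* held an adjusted p of 0.0274 in limma. In Balb/c mice 0 of the 4 passed, with differences of 0.48, 0.17, and 0.02 for these genes. The genes singled out in the accounts of neighbors and relatives were picked after their values were seen, apart from the most abundant one of a family.

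Among 12180 genes (mean level of 1 FPKM or more), the ones whose levels ran closest to *Enpp5* over the 18 tumors were *Cttn*, coding for the actin regulator cortactin (r = 0.92), *Suclg2* (r = 0.90), and *Mcm6*, a subunit of the replicative helicase (r = 0.88). *Prr7* ran closest to *Tamm41* (0.89), *Racgap1*, a cytokinesis gene (0.88), and *Slc25a32* (0.87). *Trpa1* ran closest to 3 nuclear genes, *Snrnp40* of the spliceosome (0.89), the histone demethylase gene *Kdm1a* (0.88), and the RNA helicase gene *Ddx39b* (0.88). For *Olfml2b* they were *Angptl2* (0.89), *Fkbp9* (0.87), and *Elp2* (0.87), and for *Gng4* they were *Gm10052* (0.84), *Pitrm1* (0.83), and *Olfml2b* itself (0.83). *Rcan2* ran closest to *Cenpb* (0.86), *Mks1* (0.82), and *Hnrnpa1* (0.81). All 18 tumors and the choice of the members on 10 of them enter these r values, which are descriptions. Over the 15 pairs of members, r of the deviations from the group means lay between -0.44 and 0.39 over 18 tumors, with a smallest permutation p for r of 0.113, while rho reached 0.55 (permutation p = 0.0433, adjusted over the 15 pairs 0.649) for *Gng4* and *Rcan2*.

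Promoter sequence was in RefSeq (GRCm38.p6, the mm10 assembly) for 4 of the 6 genes, *Gng4*, *Olfml2b*, *Prr7*, and *Rcan2*. The 3 sequences that follow are of *Prr7*, with a Balb/c difference of 0.61, and of *Gng4* and *Olfml2b*, with -0.07 and -0.10. These differences were not tested against each other, and the part of promoter sequence in them was not tested. Shown are the 250 bases before a transcription start, 5′ to 3′ on the plus strand, with CpG dinucleotides in capitals.
Prr7 (chr13:55464017-55464266): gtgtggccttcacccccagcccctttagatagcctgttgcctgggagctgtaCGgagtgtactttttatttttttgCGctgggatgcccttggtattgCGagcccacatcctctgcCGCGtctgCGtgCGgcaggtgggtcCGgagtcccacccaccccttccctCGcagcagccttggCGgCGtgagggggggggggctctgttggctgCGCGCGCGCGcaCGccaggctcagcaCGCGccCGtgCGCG
Gng4 (chr13:13783809-13784058): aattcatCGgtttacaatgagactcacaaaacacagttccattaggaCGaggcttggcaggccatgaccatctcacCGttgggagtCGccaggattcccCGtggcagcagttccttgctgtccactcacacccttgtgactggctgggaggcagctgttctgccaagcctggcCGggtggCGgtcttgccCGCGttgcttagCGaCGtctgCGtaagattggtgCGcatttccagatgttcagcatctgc
Olfml2b (chr1:170644282-170644531): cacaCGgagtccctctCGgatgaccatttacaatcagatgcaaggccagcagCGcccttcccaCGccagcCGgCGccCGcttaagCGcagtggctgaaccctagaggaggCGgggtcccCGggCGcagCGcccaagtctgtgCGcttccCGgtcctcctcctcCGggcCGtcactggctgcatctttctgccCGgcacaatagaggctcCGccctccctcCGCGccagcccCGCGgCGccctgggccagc
They hold 22 CpG in *Prr7*, 13 in *Gng4*, and 23 in *Olfml2b*. With the 50 bases after the start, the windows held 29, 17, and 25 CpG, where the median over 32851 RefSeq windows of the same length was 7. At the other start of *Gng4*, not printed here, the 250 bases hold 22 CpG and the window 29, as many as in *Prr7*. A motif able to form a G-quadruplex, 4 runs of at least 3 G with gaps of 1 to 7 bases on either strand, was in 2 of the 7 windows of the members, in *Prr7* and in the window at the other start of *Gng4*, and in 18.6% of all windows. In *Prr7* it read, on the plus strand, CCCACCCACCCCTTCCC, from 103 bases before the start. The match describes these letters only.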

How the data were processed

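RNA of 18 K7M2 tumors was analysed, each mapped by its labels to 1 of 4 groups. The members and the lists of relatives and markers were chosen with earlier results of these data known. Per the labels and the study's methods, ribo-depleted stranded total RNA was sequenced as paired reads, the authors used STAR 2.6.0c to align reads to mm10, dropped PCR duplicates and reads of low quality, and took gene levels from Cufflinks 2.2.1 on RefSeq models; whether counting used strand is not stated. The deposited values are log2 (FPKM + 1) per gene and tumor, as the authors made them, with 20878 genes and 92 spike-ins, which were left out. Base 2 was checked from the values: FPKM times transcript length summed to 1.10 to 1.13 times the expected total, against 8.45 to 11.2 times for the natural log.

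Whole reads could not be recovered (per library, 34.5% to 42.1% of low values came within 0.1 of a whole number, and chance gives 20%), so no count test was run, and the depths given are estimates. Differences were fitted per host in R 4.3.3 by limma 3.58.1 (eBayes with a trend), using each gene that averaged 0.1 FPKM or more, and Benjamini-Hochberg adjustment ran over all of these genes. The study's own differential test, DESeq, was not used because counts were not analysed here. A gene was called at an adjusted p under 0.05 and a fold of at least 2 in FPKM + 1. Permutation tests of single genes and marker means were exact and two-sided (SciPy 1.17.1). The steps were tested on simulated data. Intervals cover the spread between tumors.

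Genes named by rule were the members, *Atrx*, relatives or genes within 250 kb of a member that were called in a host or did not overlap in both hosts in 1 direction, the 3 genes most alike to each member, and the most abundant gene of a family. The alternatives were a pseudocount of 0.1, a filter at 1 FPKM or none, median-ratio scaling, a fit of all 4 groups, library weights (with a robust prior), removal of the trend along transcript length, no fold threshold, and each tumor left out. The length slope as a covariate was added after seeing the data.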

Additional observations from a re-analysis of the deposited data

Results flagged for a closer look

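Of the 28 groups of tumors checked for a value far from the rest (the 6 genes and *Atrx* in 4 groups each), 2 held one, where chance gives about 1.4. *Prr7* stood at 1.54 on the log2 (FPKM + 1) scale in Balb/c ATRX-CT mouse 45, against 0.95 to 1.04 in the other 3 control tumors. It is the control tumor that overlapped with the ATRX-KD group. *Atrx* stood at 4.12 in NSG ATRX-KD mouse 27, against 3.24 to 3.30 in the other 4 tumors of that group. The slope of gene levels along transcript length was 0.13 in the library of mouse 27 and -0.09 to -0.04 in the other 4. Mouse 27 also held the highest *Gng4*, *Rcan2*, and *Olfml2b* of the 18 tumors, at 5.09, 8.70, and 12.7 FPKM. Its *Trpa1*, at 3.67 FPKM, and its *Enpp5*, at 2.80 FPKM, were the next to lowest of its group. The part of the slope in these values was not tested.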

How the results depend on the processing

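No member was called in Balb/c mice under any of the alternatives, and 2 of the 6 (*Prr7* and *Enpp5*) kept an unadjusted p under 0.05 in each, with 3 under library weights (*Trpa1* added) and without ATRX-KD mouse 56 (*Rcan2* added). Without 1 Balb/c tumor in turn, the difference of *Prr7* lay between 0.55 and 0.74 and that of *Enpp5* between 0.59 and 0.92. Over the other settings the adjusted p of *Prr7* was 0.0719 (library weights) to 0.815, and that of *Enpp5* 0.175 (fit of all 4 groups) to 0.965, with differences of up to 0.93 and 1.26 at a pseudocount of 0.1. *Gng4* lay between -0.18 and 0.066 without 1 tumor, and was above 0 without ATRX-CT mouse 44 (0.066) or ATRX-KD mouse 58 (0.03), and *Rcan2* was not tested with the filter at 1 FPKM. With the length slope as a covariate, *Trpa1* differed by 0.13, *Prr7* by 0.62, and *Enpp5* by 0.74 (limma adjusted p = 0.797, 0.208, and 0.279).

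The genes called in Balb/c mice numbered 1, and 0 with a filter at 1 FPKM, no filter, the length trend removed, or the slope as a covariate, 15 with library weights, 9 in the fit of all 4 groups, and 0 to 2 without 1 tumor. In NSG mice 68 genes were called, 226 with a pseudocount of 0.1, 201 with library weights, 994 with no fold threshold, and from 27 (without ATRX-KD mouse 30) to 124 (without ATRX-KD mouse 26) without 1 tumor. Median-ratio scaling left 18 called higher and 49 lower in NSG mice, against 25 and 43. Between 4 and 6 members were called there, as *Trpa1* and *Prr7* crossed the fold threshold. With a pseudocount of 0.1, 3 relatives or neighbors were called in NSG mice, *Enpp3* higher and *Dok3* and *Trpm2* lower. The causes of these shifts were not tested. *Atrx* in NSG mice passed an adjusted p under 0.05 with library weights (0.000976), with the length trend removed or its slope as a covariate, and without ATRX-CT mouse 2 or ATRX-KD mouse 27.

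No paired analysis was possible because the labels number the mice through the series and the groups share no replicate numbers. Levels near 0.15 FPKM, as of *Rcan2* in Balb/c mice, rest on about 10.7 fragments, and with 4 tumors a group no exact permutation p below 0.0286 can be had.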
